A study of Mus musculus with 16 samples.

Results

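RNA of the aortic valve was compared between 4 Eln+/- mice, which carry 1 working copy of the elastin gene Eln, and 4 Eln+/+ mice, which carry both. These 8 arrays were chosen by their labels, out of 16 arrays in all, the other 8 being ascending aorta of the same genotypes. All mice were 30 days old and untreated. The valve specimen was not the leaflets alone: cusp, annulus and root were dissected as 1 piece, so cusp tissue, the fibrous ring and the arterial wall of the root are present, and heart muscle attached to the ring can be. Per the labels each array holds the RNA of 1 specimen of 1 animal, without pooling, and nanogram amounts of RNA were amplified with the Nugen Ovation system before hybridisation to Affymetrix mouse expression arrays. The construction of the mutated allele, the strain and the sex of the mice are not given in the labels.

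The deposited values are ratios. In 39827 of 45101 probe sets their median across the 16 arrays is 1, so that each value stands relative to the probe set's own median, and in the other 5274 the median is below 1 and the reference is not known. All values below are log2 of the ratio. For most probe sets 0 is thus the series median and 1 is double it, but for 1984 of the probe sets shown per gene, Lef1 among the genes named, 0 lies above the median. Differences between arrays can be read in both kinds, and no value tells how strongly a gene is expressed in comparison with another gene. Of the 18193 genes with a probe set, each is shown by its probe set of highest SD over the 16 arrays. Differences are Eln+/- minus Eln+/+ in valve, with a standard error (SE) from a limma model with 1 mean for each of the 4 groups, and adjusted p-values are Benjamini-Hochberg over 45037 probe sets.

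The tissue labels were checked against 4 genes known from valve. Tbx20, a transcription factor of valve mesenchyme and heart muscle, ranged from 0.59 to 1.45 over the 8 valve arrays and from -3.54 to -1.002 over the 8 aorta arrays. Sox9 and Comp, regulator and matrix protein of cartilage and valve, separated the tissues in the same direction, and Nfatc1, of valve endothelium, overlapped between them.

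The genotype groups also differed in genes of the sex chromosomes. Xist, the RNA that coats the inactive X chromosome, stood at 0.10, 0.0070, 0.029 and 0.32 in the Eln+/- arrays and at -6.64, 0.21, -6.64 and -6.64 in the Eln+/+ arrays. Eif2s3y, a gene of the Y chromosome, stood at -0.14, 0.068, -0.090 and -0.32 and at 5.12, -0.39, 4.86 and 4.83. In both genes Eln+/+ replicate 2 was with the 4 Eln+/- arrays, and the other 3 Eln+/+ arrays stood apart. Because 3 of the 4 Eln+/+ arrays stood apart, genotype and this sex-linked pattern cannot be told apart in most of what follows.

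Elastin is the protein of the elastic recoil of arteries and of the ventricular side of the valve cusp. It is secreted by smooth muscle cells and valve interstitial cells as a soluble monomer, laid on a scaffold of fibrillin microfibrils, and cross-linked by lysyl oxidases into fibres that last for much of life. Loss of 1 copy of the gene in people causes supravalvular aortic stenosis, and Eln+/- mice have stiffer arteries and higher blood pressure than their littermates. The cusp is built in layers of collagen, proteoglycan and elastin, is covered by endothelium, and hinges on a ring that borders heart muscle.

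Eln itself checks the genotype labels. Eln stood at -2.03, -1.38, -2.62 and -0.81 in the 4 Eln+/- arrays and at -0.62, -0.0028, 0.043 and -1.19 in the 4 Eln+/+ arrays. Eln+/- replicate 4 lay above Eln+/+ replicate 4, so the groups overlapped by that pair, and the other 3 Eln+/- arrays were below every Eln+/+ array. Averaged over 4 arrays, Eln was -1.71 ± 0.78 (SD, n = 4) with 1 working copy and -0.44 ± 0.58 (SD, n = 4) with both. The difference was -1.27 ± 0.34 (SE), a ratio of 0.415 with a 95% interval of the log2 difference from -1.99 to -0.55. It did not pass the threshold of 0.05 in limma (adjusted p = 0.395). A two-sided exact permutation test over the 70 assignments of the 8 arrays gave p = 0.0571, where 0.0286 is the smallest p possible. The other Eln probe set gave a smaller difference, -0.61 ± 0.22 (SE), with an exact permutation p = 0.143. In the aorta the same Eln probe set differed by -0.42, and the difference between the tissues was -0.85 (limma adjusted p = 0.687).

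No gene passed the test in valve. With limma, 0 of 45037 probe sets (0.0%) had an adjusted p under 0.05, and 3873 had an unadjusted p under 0.05. The lowest adjusted p was 0.0539, for Perm1. Without Eln+/- replicate 4 the limma count was 11 (8 higher and 3 lower), and without Eln+/+ replicate 2 it was 1. The 4 Eln+/- arrays were all above the 4 Eln+/+ arrays in 638 of 18193 genes (3.51%), and all below in 331 (1.82%). At an unadjusted p under 0.05, 1066 genes (5.86%) were higher in Eln+/- and 658 (3.62%) were lower. Over all genes the median difference was 0.032, and 55% of genes were higher in Eln+/-. Counts for gene groups below are to be set beside these shares, and "higher" and "lower" describe averages of 4 arrays that did not pass the adjusted threshold.

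Heart muscle RNA also differed between the groups. A heart muscle index was taken as the mean of 12 genes of the sarcomere, the contractile unit of striated muscle, that both atrial and ventricular muscle use. The index stood at 1.73, 1.16, 2.06 and 1.61 in the Eln+/- arrays and at 0.89, 0.33, 0.58 and 1.20 in the Eln+/+ arrays. Eln+/- replicate 2, at 1.16, lay just below Eln+/+ replicate 4, at 1.20, and the other 3 Eln+/- arrays were above every Eln+/+ array. Its average was 1.64 ± 0.37 (SD, n = 4) for the Eln+/- arrays, 0.89 above the 0.75 ± 0.38 (SD, n = 4) for the Eln+/+ arrays. The 8 aorta arrays ranged from -3.65 to -0.46, so every valve array held more heart muscle RNA, relative to the series median, than every aorta array. More heart muscle cells in a specimen and more RNA from each such cell cannot be told apart in whole-tissue RNA, here or for any cell type below.

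All 12 of the 12 index genes were higher in Eln+/-, with a median difference of 0.96, and 6 had groups that did not overlap, beside 3.51% of all genes. Ttn, the giant spring of the sarcomere, stood at 2.15, 1.03, 2.38 and 2.06 in Eln+/- and at 1.02, 0.51, 1.01 and 1.27 in Eln+/+. Its groups overlapped only through Eln+/- replicate 2, and the difference was 0.95 ± 0.999 (SE). Tnnt2, cardiac troponin T, gave 2.32, 1.70, 2.67 and 1.56 against 1.55, 0.40, 1.003 and 1.46. Its lowest Eln+/- value was just above the highest Eln+/+ value, with a difference of 0.96 ± 0.49 (SE). Myh6, the fast cardiac myosin heavy chain, differed by 0.62 ± 0.97 (SE) and the cardiac actin Actc1 by 0.48 ± 0.82 (SE). The SE of these genes is wide because the fit takes its spread from all 16 arrays, and 2 aorta arrays held far more heart muscle RNA than the other 6.

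The muscle in the specimens was not of 1 chamber. Of 10 genes of atrial muscle, 8 were higher in Eln+/- (median 0.77), but 0 separated the groups, and the median was 0.44 without Eln+/- replicate 3. Nppa, the atrial natriuretic peptide, stood at 3.83, 3.53, 3.97 and 0.86 in Eln+/- and at 1.37, 1.14, 2.95 and 3.59 in Eln+/+. Sln, sarcolipin, the atrial regulator of the calcium pump, stood at 3.93, 3.20, 4.33 and 0.98 and at 2.25, 0.84, 2.29 and 3.83. Both genes were low in Eln+/- replicate 4 and high in Eln+/+ replicate 4, so that the groups crossed. Hamp, which encodes the iron hormone hepcidin, gave 4.72, 3.20, 4.96 and 1.58 against 2.11, 0.54, 2.08 and 4.18. Hamp too was lowest of its group in Eln+/- replicate 4 and highest of its group in Eln+/+ replicate 4.

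Ventricular genes had another pattern. Of 10 measured, 8 were higher (median 0.86), 3 with separate groups on the higher side and 1 on the lower side. The lower one was Hey2, a transcriptional repressor of ventricular muscle and of vessels, which differed by -0.60 ± 0.21 (SE). Irx3, a transcription factor of the ventricular conduction system, stood at 0.42, 0.90, 1.61 and 0.57 in Eln+/- and at 0.044, -0.38, -1.39 and -0.11 in Eln+/+. Every Eln+/- array was above every Eln+/+ array, by 1.33 ± 0.34 (SE) on average (limma adjusted p = 0.369). Myl2, the ventricular regulatory light chain, also separated the groups, with 0.70, 0.66, 1.04 and 1.04 against 0.37, 0.29, 0.078 and 0.33 and a difference of 0.60 ± 0.84 (SE). Myh7, the slow myosin heavy chain, was at 2.09, 2.02, 3.02 and 3.02 against 2.11, 1.05, 0.078 and 2.34, which overlapped. Eln+/- replicate 4 thus had high ventricular and low atrial values, while Eln+/+ replicate 4 had high atrial values and ventricular values within the range of its group.

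**Figure D1:**
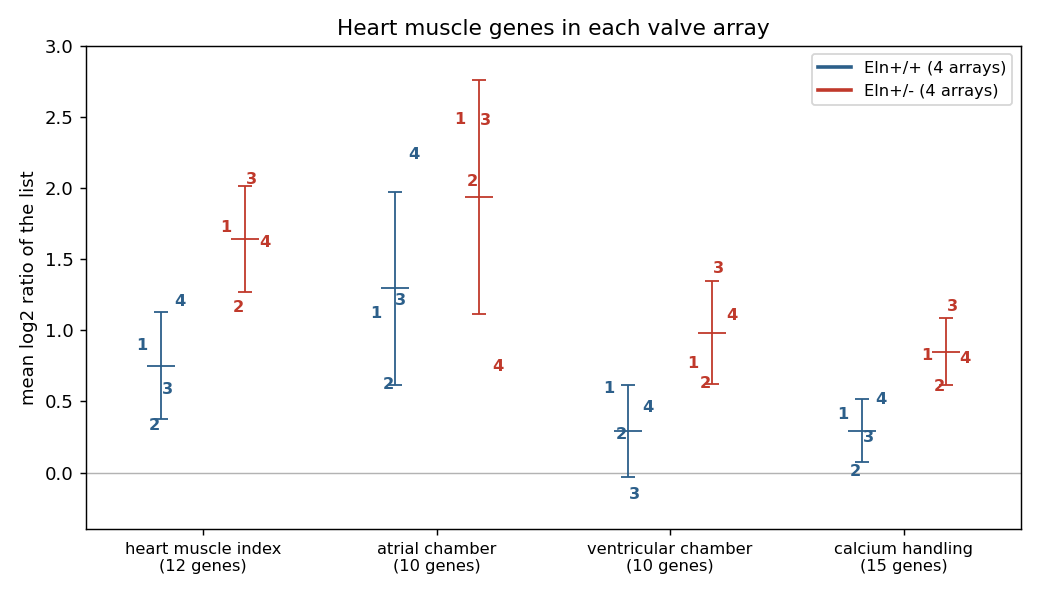
Mean log2 ratio of the 12 index genes, the 10 atrial, the 10 ventricular and the 15 calcium handling genes on each of the 8 valve arrays; each point is 1 array, its digit is the replicate number, and bars give the mean ± SD of 4 arrays. The index is lowest in Eln+/+ replicate 2 (0.33) and highest in Eln+/- replicate 3 (2.06), and Eln+/- replicate 4 is the lowest Eln+/- array for atrial genes (0.75).

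Calcium handling genes were higher together with the sarcomere genes. Among 15 genes of calcium handling and excitation coupling, 13 were higher (median 0.74), including Ryr2, the calcium release channel, by 1.05 ± 0.51 (SE), and Atp2a2, the calcium pump of the sarcoplasmic reticulum, by 0.75 ± 0.34 (SE). Their median at equal heart muscle index, a comparison described in the next paragraph, was 0.024. Slc8a1, the sodium-calcium exchanger, was lower by its probe set of highest SD (-0.96 ± 0.32, SE), but the other 3 of its 4 probe sets had the opposite sign. Of 9 stress genes, 6 were higher (median 0.61), and 9 of 9 were higher at equal index (median 0.32), so this list did not follow the index as closely. Nppb, the B-type natriuretic peptide that muscle releases under load, stood at 0.89, 2.04, 2.48 and 2.51 in Eln+/- and at -0.22, 0.81, 0.074 and 1.30 in Eln+/+. Only Eln+/- replicate 1 lay within the range of the Eln+/+ arrays, and the difference was 1.49 ± 0.35 (SE) (limma adjusted p = 0.368). Ankrd1, a stretch-responsive protein of the sarcomere, gave 2.61, 1.65, 3.03 and 2.91 against 1.57, 0.71, 0.17 and 1.61, with all Eln+/- arrays above all Eln+/+ arrays. Acta1, skeletal actin, was high in Eln+/- replicates 3 and 4 and overlapped otherwise, at 0.54, 0.85, 3.17 and 2.55 against -0.54, 1.37, 0.19 and 1.60.

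Because the groups differed in heart muscle RNA, each gene was also fitted over the 8 valve arrays with genotype and the index together. The genotype term of that fit is the difference at equal index. It rests on 5 residual degrees of freedom, and since index and genotype go together its variance is inflated by 2.88 times and its SE is 1.60 times as wide in the median gene. In limma 0 of 45037 probe sets (0.0%) passed it, with 2175 at an unadjusted p under 0.05 and a lowest adjusted p of 0.382. Without Eln+/+ replicate 2 the limma count was 14, which included Xist and Eif2s3y. By gene, 464 (2.55%) were higher and 493 (2.71%) lower at an unadjusted p under 0.05. With only 8 valve arrays the slope on the index is itself uncertain: 0 probe sets passed the test of the slope in limma, and 4062 had an unadjusted p under 0.05. At equal index the Eln difference was 0.016 ± 0.47 (SE), with a 95% interval from -1.05 to 1.09, which includes 0 and, at its lower end, a log2 difference of -1, a ratio of 1 to 2. Where the slope was instead taken over all 16 arrays, aorta included, the Eln difference was -1.24, close to the unadjusted one. Eln values at equal index therefore depend on which arrays set the slope.

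Genes of mitochondrial energy production were higher on average in Eln+/-. The respiratory chain passes electrons from NADH and succinate to oxygen through complexes I to IV, and the ATP synthase uses the proton gradient that results. All 26 of 26 nuclear genes of these complexes were higher in Eln+/- (median 0.81). In 15 of them the groups did not overlap (3.51% of all genes on that side), 20 had an unadjusted p under 0.05 (5.86% of all genes), and 0 had an adjusted p under 0.05. The medians of the parts ranged from 0.70 to 0.93: 0.76 in 6 genes of complex I, 0.70 in 4 of complex II, 0.81 in 4 of complex III, 0.93 in 6 of complex IV with cytochrome c, and 0.76 in 6 of the ATP synthase. The mean of the 26 genes stood at 0.78, 0.56, 1.33 and 0.75 in the Eln+/- arrays and at 0.020, -0.20, 0.016 and 0.44 in the Eln+/+ arrays. All Eln+/- arrays were above all Eln+/+ arrays, Eln+/+ replicate 4 being the highest of its group. With the sex-linked pattern as a covariate the plain medians were smaller, 0.48 for this list, 0.31 for the citrate cycle, 0.18 for fatty acid oxidation and 0.29 for glycolysis.

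Uqcrc2, a core subunit of complex III, stood at 0.88, 0.48, 1.37 and 0.91 in Eln+/- and at 0.045, -0.18, -0.047 and 0.073 in Eln+/+. The groups were separate, with a difference of 0.94 ± 0.35 (SE) (limma adjusted p = 0.464). Atp5a1, the alpha subunit of the ATP synthase, gave 0.97, 0.36, 1.24 and 0.73 against 0.086, -0.16, 0.011 and -0.011, again separate and higher by 0.84 ± 0.26 (SE). Atp5g3, a gene of the rotating c ring, gave 0.70, 0.63, 1.09 and 0.85 against 0.066, -0.021, 0.13 and 0.70, where Eln+/+ replicate 4 reached into the Eln+/- range. Cox6a2, the striated muscle form of a complex IV subunit, gave 1.08, 1.26, 2.16 and 1.50 against 0.25, 0.23, 0.18 and 1.24. Here too Eln+/+ replicate 4 was within the Eln+/- range and the other 3 Eln+/+ arrays were below it. Ndufs1, the largest subunit of complex I, was higher by 0.69 ± 0.35 (SE).

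The citrate cycle, which feeds that chain, had all 14 of 14 genes higher (median 0.71, 6 with separate groups). Mdh2, the mitochondrial malate dehydrogenase, stood at 1.002, 0.70, 1.35 and 0.98 in Eln+/- and at 0.068, -0.056, 0.054 and 0.31 in Eln+/+. No value was shared between the ranges, and the difference was 0.91 ± 0.24 (SE), with a 95% interval from 0.40 to 1.42 (limma adjusted p = 0.387). Cs, citrate synthase, gave 0.73, 0.23, 1.21 and 0.70 against -0.17, -0.29, -0.10 and -0.010, separate and higher by 0.86 ± 0.35 (SE). Got2, the mitochondrial aspartate aminotransferase of the malate-aspartate shuttle, gave 1.45, 0.82, 1.86 and 1.22 against 0.45, 0.15, 0.14 and 0.24. Its lowest Eln+/- array was well above its highest Eln+/+ array, with a difference of 1.09 ± 0.21 (SE). The other Got2 probe sets gave 0.83, 0.28 and -0.0062.

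Fatty acid oxidation, the main fuel route of heart muscle, had all 19 of 19 genes higher (median 0.61). In 6 of them, all beta-oxidation enzymes, the groups were separate (3.51% of all genes on that side). Only 1 of the 19 had an unadjusted p under 0.05 in limma (5.86% of all genes). The limma fit takes its spread from the aorta arrays as well. The list mean ranged there from -1.205 to 1.06, both in Eln+/+ arrays. Among valve arrays the SD of the list mean was 0.17 in Eln+/+ and 0.33 in Eln+/-. The count at that threshold is thus not set by the spread among valve arrays alone. Fabp3, the fatty acid carrier of heart muscle, was higher by 0.77 ± 0.51 (SE), Acadm, the medium-chain dehydrogenase, by 0.75 ± 0.41 (SE), and Hadha, of the trifunctional protein, by 0.45 ± 0.29 (SE). Of 15 glycolytic genes 13 were higher (median 0.50). Eno3, the muscle enolase, stood at 2.05, 1.31, 2.53 and 1.90 in Eln+/- and at 0.75, 0.47, 0.36 and 0.84 in Eln+/+. The groups did not overlap, with a difference of 1.34 ± 0.44 (SE) (limma adjusted p = 0.424). Ldha, lactate dehydrogenase A, was higher by 0.51 ± 0.19 (SE), and Slc2a4, the insulin-responsive glucose transporter, by 0.99 ± 0.39 (SE).

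These energy genes varied together with heart muscle RNA. At equal index the medians were 0.14 for the respiratory chain and ATP synthase, 0.12 for the citrate cycle, 0.15 for fatty acid oxidation and 0.11 for glycolysis, beside 0.027 over all genes. Uqcrc2 was then at 0.39 ± 0.24 (SE), Mdh2 at 0.43 ± 0.21 (SE) and Ndufs1 at -0.14 ± 0.23 (SE). With the slope taken over all 16 arrays, the same medians were 0.74, 0.73, 0.68 and 0.33. In the fit of the 8 valve arrays the medians at equal index did not keep their sign: without Eln+/+ replicate 4 the citrate cycle was at -0.094 and fatty acid oxidation at -0.14, and with the replicate number as a block the respiratory chain was at -0.061. How much of the difference goes with heart muscle content is thus not settled by these arrays.

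Perm1 had the smallest p of any gene. Perm1 is a muscle protein that the coactivator PGC-1 and the estrogen-related receptors induce, and it raises mitochondrial gene expression in muscle. Perm1 stood at 1.53, 1.32, 1.80 and 1.53 in the Eln+/- arrays and at 0.32, -0.019, 0.022 and -0.56 in the Eln+/+ arrays. All 4 Eln+/- arrays were about 1 unit or more above every Eln+/+ array, with a small spread within Eln+/-. The difference was 1.61 ± 0.21 (SE), a 3.04-fold ratio with a log2 interval from 1.16 to 2.05, and the limma adjusted p was 0.0539. At equal index the difference was of similar size, 1.59 ± 0.35 (SE) (limma adjusted p = 0.936), and without Eln+/+ replicate 4 that value was 0.87. That fit takes 1 slope for both genotypes. Perm1 was higher with the index within Eln+/-, but lowest in Eln+/+ replicate 4, the array of highest index in its group. In aorta Perm1 differed by -0.35, and the difference between the tissues was 1.95 (limma adjusted p = 0.338). The second Perm1 probe set gave only 0.11 ± 0.20 (SE) in valve, so the difference rests on 1 probe set.

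The estrogen-related receptors bind AAGGTCA, and their sites are common near genes of oxidative metabolism. RefSeq promoters of build GRCm38.p6, from 250 bases before to 50 after the annotated start, were searched for AAGGTCA on both strands. It was present in 2 of 19 respiratory chain and ATP synthase genes with a promoter in the table, 1 of 13 citrate cycle genes, 1 of 16 fatty acid oxidation genes and 2 of 14 mitochondrial regulators. Of all 27025 genes with a promoter 5.38% held it. Perm1 and Rxrg are those 2 regulators, and in Perm1 the match is on the opposite strand. The sequences below are the bases before the start of Perm1 and shorter stretches around the match in 3 genes named here, shown because these genes were higher in Eln+/- and carry the letters. They are 5′ to 3′ on the gene's strand, with the match in capitals. A match is a run of letters and not a measured binding site.
Perm1 (chr4:156215677-156215926, plus strand, match starting 202 bases before the start, read as TGACCTT): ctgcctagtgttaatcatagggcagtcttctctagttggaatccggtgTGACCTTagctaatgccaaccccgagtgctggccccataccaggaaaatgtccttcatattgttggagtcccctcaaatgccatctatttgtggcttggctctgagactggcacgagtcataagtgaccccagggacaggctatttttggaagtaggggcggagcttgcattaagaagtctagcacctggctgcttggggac
Atp5g3 (chr2:73911352-73911398, minus strand, 52 bases before the start): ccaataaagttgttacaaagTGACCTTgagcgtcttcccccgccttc
Acadm (chr3:153944866-153944893, minus strand, 249 bases before the start): gTGACCTTcgggctccggtgacactggg
Rxrg (chr1:167618156-167618202, plus strand, 89 bases before the start): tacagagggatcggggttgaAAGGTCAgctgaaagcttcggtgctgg

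Regulators of mitochondrial genes were mostly higher as well, 14 of 15 (median 0.52, 3 with separate groups, beside 3.51% of all genes). At equal index 9 were higher and 6 lower (median 0.075), and that median ranged from -0.18 to 0.22 with 1 array left out. Ppargc1a, which encodes PGC-1 alpha, stood at 1.47, 0.48, 1.74 and 1.41 in Eln+/- and at 0.63, 0.14, 0.37 and 0.94 in Eln+/+. Eln+/- replicate 2 lay among the Eln+/+ arrays, and the difference was 0.76 ± 0.44 (SE), or -0.28 ± 0.24 (SE) at equal index. Esrrb, an estrogen-related receptor, gave 1.28, 1.31, 1.44 and 0.18 against -0.092, 0.12, -0.14 and 0.51. Its first 3 Eln+/- arrays were above all Eln+/+ arrays and replicate 4 was not, with a difference of 0.95 ± 0.24 (SE) (limma adjusted p = 0.368). Ppara, the nuclear receptor that drives fatty acid oxidation genes, gave 0.31, 0.14, 0.81 and 0.47 against -1.47, -1.46, -0.15 and -0.66, separate groups with wide spread in Eln+/+. The Ppara difference was 1.37, and 0.56 averaged over its probe sets. Esrra, the estrogen-related receptor alpha, was higher by 0.52 ± 0.27 (SE), and Rxrg, a retinoid X receptor, by 0.60 ± 0.20 (SE).

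Smooth muscle contractile genes went the other way. Smooth muscle of the arterial wall is a main source of elastin, and its contraction uses smooth muscle actin and myosin. Of 22 genes 18 were lower in Eln+/- (median -0.72), 2 with separate groups, beside 1.82% of all genes. The 4 that were higher, Tpm1, Des, Pln and Casq2, are also made in heart muscle. The list mean stood at -0.77, -0.20, -1.26 and -0.36 in Eln+/- and at -0.27, 0.24, 0.083 and -0.42 in Eln+/+. Eln+/- replicate 3 was lowest of all, and replicates 2 and 4 of Eln+/- and 1 and 4 of Eln+/+ lay within the range of the other genotype. Without Eln+/- replicate 3 the list median was -0.42.

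Acta2, smooth muscle actin, stood at -1.17, -1.001, -3.20 and -1.04 in Eln+/- and at -0.36, 0.86, -0.16 and -1.10 in Eln+/+. Eln+/- replicate 3 lay far below the rest, and Eln+/+ replicate 4 lay within the Eln+/- range, with a difference of -1.41 ± 0.52 (SE) (limma adjusted p = 0.464). Actg2, the enteric smooth muscle actin, gave -1.50, -1.14, -2.53 and -0.87 against -0.28, 0.38, 0.79 and -1.23, with the same overlap through Eln+/+ replicate 4. Myh11, smooth muscle myosin, gave -1.39, -0.56, -2.04 and -0.85 against -0.27, 0.15, -0.16 and -0.75. Eln+/- replicate 2 and Eln+/+ replicate 4 crossed, and the difference was -0.95 ± 0.31 (SE). Ppp1r14a, an inhibitor of myosin phosphatase, was 1 of the 2 with separate groups, at -1.64, -0.50, -1.69 and -0.72 against -0.44, 0.31, -0.0036 and -0.24. The difference was -1.04 ± 0.28 (SE) (limma adjusted p = 0.395). The other was Myl6, a light chain used by smooth and non-muscle myosin (-0.55 ± 0.28, SE). Further lower members were Mylk, the kinase that starts contraction (-1.08 ± 0.40, SE), Cnn1, calponin (-1.02 ± 0.39, SE), Tagln (-0.71 ± 0.30, SE) and Myl9, the regulatory light chain (-0.54 ± 0.21, SE).

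With the index in the fit the smooth muscle median turned to 0.37, with Acta2 at 0.52 ± 0.53 (SE), Cnn1 at 0.57 ± 0.46 (SE) and Ppp1r14a at -0.10 ± 0.35 (SE). With the slope over all 16 arrays it was -0.61, and after quantile normalization of the arrays 0.016. In these 8 arrays smooth muscle values were low where heart muscle values were high, and a direction for smooth muscle at equal heart muscle content could not be fixed.

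Many smooth muscle promoters carry CArG boxes, the binding element of serum response factor, and many heart muscle promoters carry CArG boxes or MEF2 sites. In the same promoter windows a CArG box was found in 2 of 18 smooth muscle genes and 2 of 11 index genes, beside 1.81% of all genes. A MEF2 site was found in 1 of 18 and 3 of 11, beside 3.7% of all genes. The stretches below hold the CArG box of Myl9 and Myl6, which were lower in Eln+/-, the CArG box of Actc1 and the MEF2 site of Mybpc3, the cardiac myosin binding protein, from the index. The CArG boxes are shown because the same short element occurs in members of both groups, whose averages differed in opposite directions. This does not hold for the MEF2 site: the 1 smooth muscle gene with it was Casq2, which was higher in Eln+/-. The element is in capitals.
Myl9 (chr2:156775283-156775332, plus strand, 161 bases before the start): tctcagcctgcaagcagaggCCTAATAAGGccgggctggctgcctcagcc
Myl6 (chr10:128493030-128493079, minus strand, 50 bases before the start): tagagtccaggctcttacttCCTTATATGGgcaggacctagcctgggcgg
Actc1 (chr2:114052893-114052942, minus strand, 47 bases before the start): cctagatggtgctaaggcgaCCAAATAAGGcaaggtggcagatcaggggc
Mybpc3 (chr2:91118034-91118083, plus strand, 90 bases before the start): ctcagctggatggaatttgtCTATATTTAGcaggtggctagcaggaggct

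Most elastic fibre genes shared the direction of Eln, with smaller differences. Of 19 genes, Eln included, 16 were lower (median -0.29), and 1 had separate groups. That gene was Ltbp3, a latent TGF-beta binding protein of the fibrillin family (-0.71 ± 0.34, SE). Lox, the lysyl oxidase that cross-links elastin and collagen, stood at -1.64, -0.24, -2.17 and -0.67 in Eln+/- and at -0.68, -0.14, -0.31 and -0.77 in Eln+/+. Eln+/- replicates 1 and 3 were lowest and the other arrays overlapped, with a difference of -0.70 ± 0.33 (SE). Loxl1, the lysyl oxidase needed for elastic fibre renewal, differed by -0.27 ± 0.20 (SE). Among microfibril proteins Mfap4 differed by -0.44 ± 0.18 (SE) and Mfap5 by -0.40 ± 0.17 (SE). Fbln5, the fibulin that guides elastin to microfibrils, stood at -0.041, -0.060, -1.44 and -1.47 against -1.17, 0.11, 0.27 and -1.25. It was low in 2 arrays of each genotype, so no genotype pattern was visible. Emilin1, a glycoprotein at the elastin-microfibril border, differed by -0.30 ± 0.27 (SE). The 3 members that were higher were Loxl4 (0.43 ± 0.26, SE), Fbn2 (0.40 ± 0.35, SE) and Emilin2 (0.30 ± 0.49, SE). The list median at equal index was 0.17, with the slope over all 16 arrays -0.28.

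Collagens were also lower on average, 18 of 22 (median -0.34), 1 with separate groups. Col1a1, the main fibrillar collagen, stood at -0.34, -0.036, -0.86 and -0.11 in Eln+/- and at 0.029, -0.025, 0.19 and -0.063 in Eln+/+. Eln+/- replicates 2 and 4 lay near or within the Eln+/+ range, and the difference was -0.37 ± 0.16 (SE). The partner chain Col1a2 differed by -0.52 ± 0.23 (SE), Col3a1 by -0.33 ± 0.20 (SE) and Col5a1, which starts fibril assembly and was the gene with separate groups, by -0.57 ± 0.21 (SE). All 6 basement membrane collagens were lower. Among them Col4a6 stood at -1.43, -0.73, -2.27 and -0.93 against -0.74, 0.031, 0.11 and -1.12, with Eln+/+ replicates 1 and 4 inside the Eln+/- range, and Col4a5 differed by -0.58 ± 0.25 (SE). The 3 network collagens were all higher, Col8a1 by 0.48 ± 0.36 (SE). Without Eln+/- replicate 3 the collagen median was -0.18. The collagen median at equal index was 0.12, and with the slope over all 16 arrays it was -0.36.

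Cartilage-type matrix, which the root and the hinge of the mouse valve can contain, was higher on average in Eln+/-. Of 23 genes 17 were higher (median 0.35) and none had separate groups. Col2a1, the collagen of cartilage, stood at 3.85, 3.29, 0.055 and 3.43 in Eln+/- and at 1.28, 0.60, -0.041 and 2.98 in Eln+/+. It was near the series median in replicate 3 of both genotypes and high in the other 3 Eln+/- arrays and in Eln+/+ replicate 4. The difference was 1.45 ± 0.69 (SE) (limma adjusted p = 0.583), and 1.50 ± 1.56 (SE) at equal index. Col11a1, its fibril partner, followed the same arrays, at 2.52, 2.49, 0.81 and 2.71 against 1.43, 0.11, -0.20 and 2.42. Col9a3 was higher by 0.96 ± 0.38 (SE) and Chad, chondroadherin, by 0.97 ± 0.41 (SE). Acan, the large proteoglycan of cartilage, did not share this, at -0.32 ± 0.53 (SE), and Sox9, the regulator of cartilage genes, was at 0.35 ± 0.20 (SE). The list median was 0.20 at equal index but -0.18 there after quantile normalization.

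**Figure D2:**
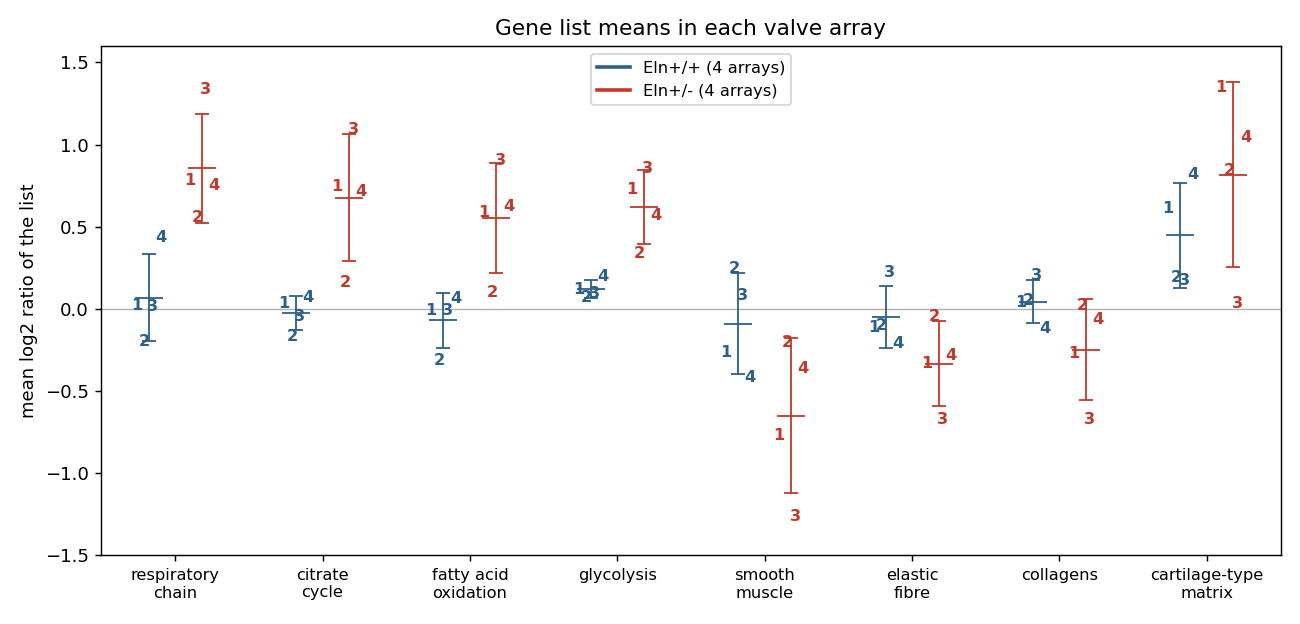
Mean log2 ratio of 8 gene lists on each of the 8 valve arrays, with the lists side by side; points are arrays with the replicate number as digit, and bars give the mean ± SD of 4 arrays. The groups are separate for the respiratory chain, and overlap for smooth muscle, where Eln+/- replicate 3 is lowest (-1.26), and for cartilage-type matrix, where Eln+/- replicate 3 is at 0.032.

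Other matrix groups were more mixed. Proteoglycans and hyaluronan enzymes split 10 higher and 15 lower (median -0.10). Hspg2, perlecan, the heparan sulfate proteoglycan of basement membranes, differed by -0.75 ± 0.34 (SE) and Gpc3, a glypican, by -0.76 ± 0.29 (SE). Laminins split 6 and 6. Of 27 matrix proteases and inhibitors 19 were lower (median -0.21), and 6 of the 7 inhibitors, 2 with separate groups.

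Of 5 signalling pathways that shape the valve, the TGF-beta, BMP, Wnt and Notch lists held more lower than higher genes, and the FGF list held more higher ones. TGF-beta is stored in the matrix by latent binding proteins and acts through Smad2 and Smad3 to raise matrix genes. Of 21 pathway genes 17 were lower (median -0.19), among them 6 of 6 ligand genes and 5 of 5 targets. The list mean was -0.049, -0.026, -0.58 and -0.011 in Eln+/- and 0.13, 0.14, 0.070 and -0.13 in Eln+/+. Eln+/- replicate 3 lay far below the other 3, and without it the list median was -0.040. Smad3 stood at -0.26, -0.064, -0.27 and 0.061 in Eln+/- and at 0.74, 0.67, 0.44 and 0.14 in Eln+/+. All Eln+/- arrays were below all Eln+/+ arrays, with a difference of -0.63 ± 0.24 (SE) (limma adjusted p = 0.489), and 2 of its 3 probe sets had this sign. Tgfb1 differed by -0.45 ± 0.22 (SE) and the matricellular target Postn, periostin, by -0.53 ± 0.21 (SE). With the index in the fit the list median was 0.23, while Smad3 was at -0.32 ± 0.26 (SE) and Tgfb1 at -0.60 ± 0.37 (SE); with the slope over all 16 arrays the list median was -0.24.

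BMP signals, which promote cartilage and mineral, had 12 of 19 genes lower (median -0.18), and 13 of 19 at equal index (median -0.19). The plain median was -0.055 without Eln+/+ replicate 4 and -0.049 without Eln+/- replicate 4. The receptor gene Bmpr1b stood at -2.25, -2.52, -3.39 and -2.34 in Eln+/- and at -2.52, -0.18, -0.56 and -1.01 in Eln+/+. Only Eln+/+ replicate 1 was as low as the Eln+/- arrays, and the difference was -1.56 ± 0.46 (SE). Averaged over the Bmpr1b probe sets it was -0.75. In the Wnt pathway 24 of 29 genes were lower (median -0.20), with all 7 of 7 receptor genes, and the list median at equal index was 0.012. Nkd1, a feedback inhibitor that Wnt induces, stood at -0.61, -0.11, -0.51 and -0.52 against 0.18, 0.95, 0.88 and -0.10. Eln+/- replicate 2 and Eln+/+ replicate 4 met at about the same value, with a difference of -0.92 ± 0.29 (SE). Averaged over the Nkd1 probe sets it was -0.36. Wnt5a, a ligand of the non-canonical branch, stood at -0.91, 0.36, -0.58 and -0.75 against 0.034, 1.80, 0.21 and -0.035, with Eln+/+ replicate 2 far above the rest. Wnt9b, the ligand of valve endothelium, differed by -0.63 ± 0.23 (SE) and Lef1, a transcription factor of the pathway, by -0.46 ± 0.21 (SE).

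Notch genes split 5 higher and 8 lower, with the ligand gene Jag1 at -0.43 ± 0.20 (SE). FGF genes split 11 and 7 (median 0.081), and this median changed sign after quantile normalization. Fgf1 stood at 1.13, 1.16, 0.24 and 0.095 in Eln+/- and at -0.052, -1.07, -0.40 and 0.086 in Eln+/+. Eln+/- replicates 1 and 2 were high, and replicate 4 of both genotypes had about the same value. Calcification genes split 7 higher and 4 lower. The separate one was Ank, which exports the mineral inhibitor pyrophosphate, at 0.67, 0.39, 1.01 and 0.72 against 0.0063, -0.43, 0.064 and 0.26. It was higher by 0.72 ± 0.22 (SE), and by 0.13 ± 0.22 (SE) at equal index.

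Genes that set vascular tone included 2 with separate groups, both of the renin-angiotensin system: Agt, which was higher, and Ace, the angiotensin-converting enzyme, which was lower (-0.34 ± 0.18, SE). Agt, angiotensinogen, stood at 0.26, 0.49, 0.23 and 0.44 in Eln+/- and at -0.60, -0.33, -0.52 and 0.17 in Eln+/+. Every Eln+/- array was higher, by 0.68 ± 0.17 (SE) (limma adjusted p = 0.368), and the difference was 0.58 ± 0.32 (SE) at equal index. Agtr1a, the angiotensin receptor, was higher by 0.92 ± 0.33 (SE) but at -0.21 ± 0.46 (SE) at equal index. Of the 10 genes of nitric oxide and cyclic GMP signalling 8 were lower. These included Pde5a, which breaks down cyclic GMP (-1.23 ± 0.42, SE), and Gucy1b1, a subunit of the nitric oxide receptor (-0.79 ± 0.24, SE). Of 14 potassium channel genes 11 were higher (median 0.70). Kcnq1, a channel of heart muscle repolarisation, stood at 2.30, 1.22, 2.56 and 1.73 against 0.37, 0.44, 0.0074 and 1.65. Eln+/+ replicate 4 reached the Eln+/- range, and the difference was 1.33 ± 0.32 (SE), or 0.0078 ± 0.40 (SE) at equal index. Its partner subunit gene Kcne1 was higher by 1.42 ± 0.48 (SE). Kcnmb1, the smooth muscle subunit of a calcium-activated channel, stood lower, at -2.004, -0.090, -3.09 and -0.87 against -0.64, 0.26, -0.40 and -0.45, with Eln+/- replicate 2 above all but 1 of the Eln+/+ arrays.

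Integrins link cells to elastin, collagen and fibronectin. All 10 of 10 integrin genes were lower (median -0.46), and none had separate groups. Itga8, the alpha subunit rich in smooth muscle, differed by -0.64 ± 0.29 (SE). Of the 10 genes of focal adhesions and mechanosensing 8 were lower, and Ccn1, a matricellular target of mechanosensing, differed by -0.97 ± 0.44 (SE). The integrin median at equal index was 0.31, with the sign turned.

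Markers of other cell types were counted in the same way. Of 14 mesothelium and epicardium genes 13 were lower (median -0.57). Wt1, a transcription factor of that layer, stood at -0.63, 0.13, -0.15 and -0.24 in Eln+/- and at 1.12, 0.73, 1.38 and 0.71 in Eln+/+. All Eln+/- arrays were lower, with a difference of -1.21 ± 0.40 (SE) (limma adjusted p = 0.424) and -0.96 ± 0.36 (SE) at equal index. At equal index 12 of the 14 genes were higher (median 0.43), so that the list turned its sign while Wt1 did not; with the slope over all 16 arrays the list median was -0.58. The list mean stood at -1.04, 0.050, -0.33 and -0.50 against -0.15, 0.51, 0.78 and -0.61 and overlapped, with Eln+/- replicate 1 and Eln+/+ replicate 4 both low. Fibroblast markers had 10 of 13 lower, and Pdgfra, a growth factor receptor of fibroblasts, differed by -0.68 ± 0.29 (SE). Prrx1, a transcription factor of mesenchyme, stood at -0.85, -0.17, -0.80 and -0.87 against 0.25, 0.096, 0.15 and 0.0036. The groups were separate and differed by -0.80 ± 0.27 (SE), and 5 of 6 probe sets had this sign.

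Endothelial markers had 17 of 24 genes higher (median 0.16), but at equal index 18 of 24 were lower (median -0.18), and with the slope over all 16 arrays the median was 0.16. In the plain comparison Pecam1, the adhesion protein of all endothelium, differed by -0.51 ± 0.29 (SE). Valve transcription factors split 12 and 11. Macrophage markers had 11 of 15 higher (median 0.079). The separate one was Cd14, a receptor for bacterial lipid, at 0.82, 1.05, 0.92 and 1.04 against -0.031, -0.24, 0.73 and -0.34. Its difference was 0.93 ± 0.31 (SE), and Eln+/+ replicate 3 was closest to the Eln+/- arrays. Lymphocyte (0.13), other blood (0.13), nerve and glia (0.039) and adipocyte (-0.15) medians lay between -0.15 and 0.13. Dct, a melanin enzyme of the pigment cells known to live in the mouse valve, stood at 3.61, 3.21, 1.84 and 2.80 against 2.52, 0.29, 3.14 and 1.09, above the series median on all 8 arrays and lowest in Eln+/+ replicate 2. Immediate early genes (6 higher, 7 lower), heat shock genes (5 and 4), cell cycle genes (15 and 2, median 0.12), inflammatory cytokines (median 0.19) and interferon response genes (median 0.17) were nearer to the median of all genes than the heart muscle lists were.

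Genes of iron uptake gave large single differences, although the 11 iron and copper genes as a list split 5 and 6. Cybrd1, a ferric reductase of the cell surface, stood at -1.81, -1.53, -2.05 and -1.21 in Eln+/- and at -0.19, 0.12, 0.47 and -0.49 in Eln+/+. The groups were well apart, with a difference of -1.63 ± 0.26 (SE), a 0.323-fold ratio (limma adjusted p = 0.194), and -0.97 ± 0.33 (SE) at equal index. The other Cybrd1 probe set gave -0.69 ± 0.35 (SE), and -0.021 at equal index, so the difference at equal index rests on a single probe set. Tfrc, the transferrin receptor, went the other way, at 1.24, 1.30, 1.94 and 1.55 against -0.85, -0.018, 0.018 and 0.61. All Eln+/- arrays were above all Eln+/+ arrays, by 1.57 ± 0.59 (SE) (limma adjusted p = 0.468), and 3 of 3 probe sets had this sign. With the sex-linked pattern as a covariate the Tfrc difference was smaller, 0.62, while that of Cybrd1 was -1.70.

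Among genes with separate groups, those of lowest p on the higher side were Perm1 and the following. Slc25a29, a mitochondrial carrier of basic amino acids, stood at 0.69, 0.35, 1.14 and 1.01 in Eln+/- and at -0.19, -0.44, -0.69 and -1.17 in Eln+/+. It was higher by 1.42 ± 0.25 (SE) in Eln+/-, 2.68-fold (limma adjusted p = 0.234), with the same sign in 5 of 5 probe sets and 1.32 ± 0.43 (SE) at equal index. Prkdc, the DNA-dependent protein kinase, gave 0.053, 0.032, -0.078 and -0.094 against -0.85, -0.61, -1.03 and -0.57. The Eln+/- arrays were within a narrow band near the series median and all Eln+/+ arrays were lower, with a difference of 0.74 ± 0.13 (SE). Gpr22, an orphan receptor of heart, gave 1.69, 0.94, 1.79 and 1.13 against 0.68, 0.040, 0.12 and 0.074. Eln+/+ replicate 1 was highest of its group, and the difference was 1.16 ± 0.22 (SE), or 0.62 ± 0.34 (SE) at equal index. Ifit1bl1, of the interferon-induced Ifit family, gave 2.22, 1.53, 2.56 and 0.92 against 0.086, 0.0070, -0.30 and 0.20, higher by 1.81 ± 0.34 (SE) while the interferon list as a whole had a median of 0.17. Plpp7, a nuclear envelope protein of muscle, gave 1.13, 1.34, 1.17 and 0.14 against -0.20, -0.34, -0.43 and 0.13, where Eln+/- replicate 4 only just exceeded Eln+/+ replicate 4. Txnrd3, a thioredoxin reductase, was higher by 0.84 ± 0.16 (SE) and at 0.65 ± 0.26 (SE) at equal index. Its other probe sets gave -0.041 and 0.24 in the plain comparison, so the plain difference rests on the probe set shown.

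On the lower side Peli2, a ubiquitin ligase of the Pellino family, came first beside Cybrd1. Peli2 stood at -1.09, -1.32, -1.92 and -0.92 in Eln+/- and at -0.34, 0.49, 0.40 and -0.21 in Eln+/+. The groups did not overlap and its 3 probe sets had the same sign, with a difference of -1.40 ± 0.22 (SE), a 0.379-fold ratio (limma adjusted p = 0.194), -0.70 ± 0.37 (SE) at equal index and 0.00023 in aorta. The unnamed transcript 4732416N19Rik gave -0.94, -1.31, -0.92 and -1.66 against 0.69, 0.51, 0.57 and 0.94. All Eln+/- arrays were lower, with a difference of -1.88 ± 0.35 (SE) and -2.32 ± 0.29 (SE) at equal index (limma adjusted p = 0.433). Gabre, a subunit of the GABA-A receptor, gave -0.83, -1.38, -1.14 and -0.95 against 0.015, -0.015, -0.25 and 0.076, with separate groups, a difference of -1.03 ± 0.21 (SE) and -1.26 ± 0.26 (SE) at equal index. Atp2b4, a calcium pump of the plasma membrane that smooth muscle uses, gave -1.91, -1.06, -2.97 and -1.22 against -0.39, 0.11, -0.12 and -0.23. The groups were separate, with a difference of -1.63 ± 0.36 (SE) but -0.51 ± 0.47 (SE) at equal index. Nmt2, a myristoyl transferase, differed by -0.89 ± 0.17 (SE) and Asap1, which acts on Arf proteins, by -0.60 ± 0.13 (SE). Averaged over all probe sets of the gene these differences were smaller, -0.42 for Nmt2 and -0.39 for Asap1.

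Genes of lowest p at equal index included some whose groups overlapped before the index was taken into account. Ryr3, a ryanodine receptor, stood at 0.40, -0.61, 1.31 and 0.18 in Eln+/- and at 0.71, -0.14, 0.12 and 1.88 in Eln+/+. The plain difference was -0.32, but its values were higher where the index was higher within each genotype, so the difference at equal index was -2.29 ± 0.26 (SE) (limma adjusted p = 0.382). With the slope over all 16 arrays it was -0.47, and the other 2 Ryr3 probe sets had the opposite sign at equal index, 0.50 and 0.14. Coa8, an assembly factor of complex IV, gave -0.0094, 1.89, -0.12 and 0.86 against -1.11, 0.89, 0.23 and -0.68. Its values tended to be lower where the index was higher within each genotype, giving 2.78 ± 0.44 (SE) at equal index (limma adjusted p = 0.766). The other 2 Coa8 probe sets gave 0.29 and 0.25, and the slope over all 16 arrays gave 0.996. Per3, of the circadian clock, gave -0.50, -1.62, -0.10 and 0.028 against 0.66, 0.41, 0.098 and 1.30. The groups were just separate, 6 of 6 probe sets were lower in Eln+/-, and the difference was -1.17 ± 0.48 (SE), with -2.41 ± 0.42 (SE) at equal index. Mthfd1, a folate enzyme, was at 1.45 ± 0.24 (SE) and Trmt11, a transfer RNA methyltransferase, at 1.79 ± 0.30 (SE) at equal index. On the lower side were Sema3a, a guidance ligand (-1.91 ± 0.32, SE), and Ret, a receptor kinase of nerve precursors (-1.95 ± 0.33, SE). At equal index the other Mthfd1 probe sets gave 0.40 and 0.28, and the other Trmt11 probe set gave 0.32. The other Sema3a probe sets gave -0.22 and 0.19, and the other Ret probe set gave -0.52. The large differences of these genes thus rest on the probe set shown. With the slope over all 16 arrays the probe sets shown gave -1.08 for Per3, -0.58 for Sema3a and -0.66 for Ret. The size of these differences therefore also depends on which arrays set the slope.

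**Figure D3:**
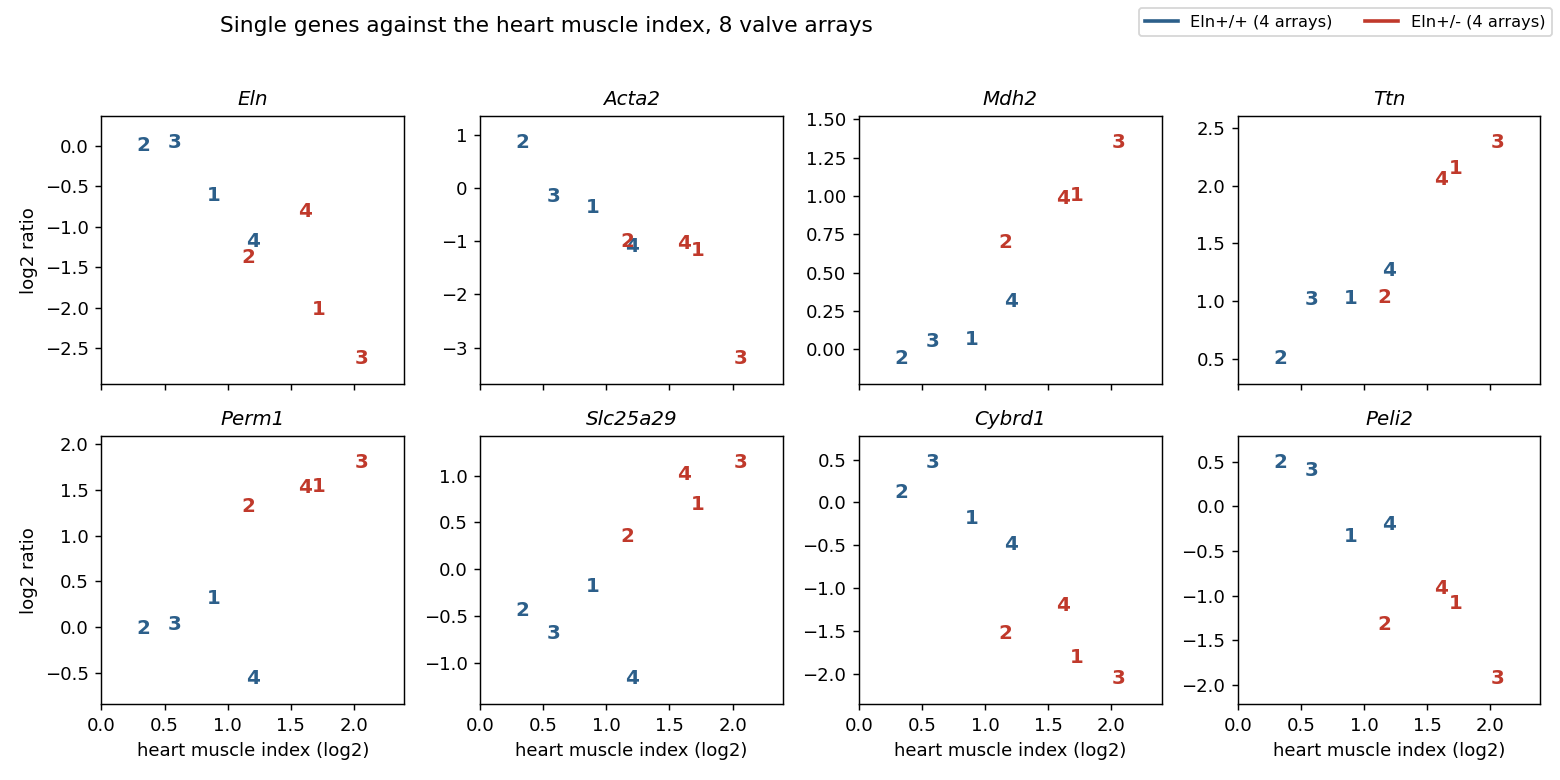
Log2 ratio of 8 genes against the heart muscle index of the same valve array; each point is 1 of 8 arrays, marked by genotype. Eln and Acta2 are lower and Mdh2 higher where the index is higher. Ttn is higher there too, but it is itself 1 of the 12 index genes. Perm1 lies in separate bands for the genotypes. Within Eln+/- Perm1 is higher where the index is higher, while in Eln+/+ the array of highest index, replicate 4, has the lowest Perm1.

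One array of each genotype had nearly the same index: Eln+/- replicate 2 at 1.16 and Eln+/+ replicate 4 at 1.20. This pair was chosen after the values were seen, it is 1 array against 1, and its sex-linked pattern differs. Atrial genes were then at 2.04 and 2.24, the respiratory chain at 0.56 and 0.44, the citrate cycle at 0.16 and 0.070, and fatty acid oxidation at 0.10 and 0.062, with the Eln+/- array first. Smooth muscle genes were at -0.20 and -0.42, elastic fibre genes at -0.047 and -0.21, and collagens at 0.018 and -0.12. In this pair Eln was at -1.38 and -1.19, Perm1 at 1.32 and -0.56, and Cybrd1 at -1.53 and -0.49. Mesothelium genes were at 0.050 and -0.61. The 7 list means named first differed by at most 0.22 within the pair, and mesothelium genes, Perm1 and Cybrd1 lay further apart. So did lists not named above: laminins (0.42), adipocyte markers (0.31), pigment cell markers (0.30) and mitochondrial regulators (0.26). Nerve and glia markers (0.24) and BMP genes (-0.24) were also further apart.

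**Figure D4:**
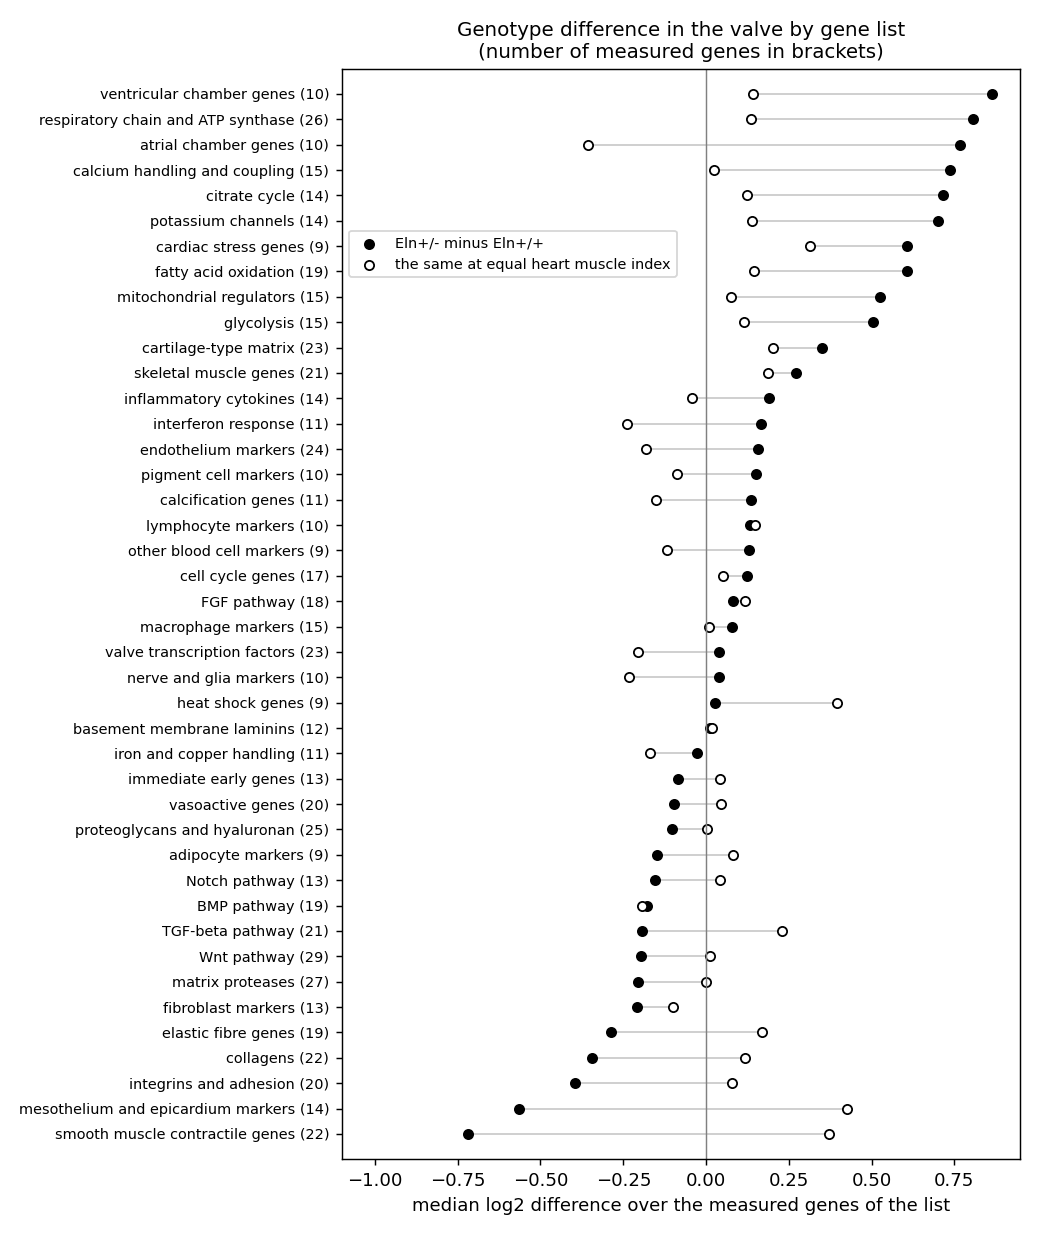
Median over its genes of the difference Eln+/- minus Eln+/+ in valve for each gene list, in log2 units; filled points are the plain difference and open points the difference at equal heart muscle index. The respiratory chain (0.81) and citrate cycle (0.71) lie to the right, with open points nearer to 0, and smooth muscle (-0.72) and mesothelium (-0.57) lie to the left, with open points on the other side of 0.

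The genotype difference in valve was tested against that in aorta for all probe sets. In limma 0 of 45037 (0.0%) differed at an adjusted p under 0.05, with 3477 at an unadjusted p under 0.05 and a lowest adjusted p of 0.338. In aorta the medians over the same lists were -0.11 for the respiratory chain, -0.18 for smooth muscle, -0.016 for elastic fibre genes and 0.045 for cartilage-type matrix. Cybrd1 differed there by -0.44 (0.26 by its other probe set), Slc25a29 by 0.44 and Mdh2 by -0.16.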

How the data were processed

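RNA of 8 aortic valve specimens was used, with the 8 aorta arrays of the series for the spread and for the comparison of tissues. The normalization named in the submitters' processing notes is RMA. The deposited values are ratios on a linear scale. Their scale was read from the values: the median of a probe set over the 16 arrays was 1 in 39827 of 45101 probe sets and below 1 in 5274. Such ratios keep no signal level, so probe sets could not be filtered on brightness, and the number of arrays limits the precision.

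Ratios were put on the log2 scale with no pseudocount. The 64 control probe sets were left out. Of the 45037 tested, the platform annotation gives 34945 to 1 gene, 932 to several and 9160 to none; several were not named. No genome build is given for the array in the sources used here; promoter sequences are RefSeq's, build GRCm38.p6.

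With limma (version 3.58.1, in R 4.3.3; lmFit, eBayes) the 16 arrays were fitted by 1 mean per group, with 12 residual and 3.60 prior degrees of freedom. A second limma model of genotype and heart muscle index was fitted to the 8 valve arrays. All tests were two-sided and adjusted by the Benjamini-Hochberg method. Both were tested on simulated data. p-values measure the spread between specimens of separate animals.

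The gene lists and the comparison were chosen with earlier results of these data known. Named genes are Eln, the 10 genes of lowest p in each direction with separate groups, the 10 in each direction at equal index, and, for each list, its key members and up to 4 of lowest p; a part is given. Alternatives were the samples in the fit, a block on the replicate number, leaving out each array, array centring, quantile normalization, array weights, a sex-linked covariate, other probe set rules, and other indices of heart muscle.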

Additional observations from a re-analysis of the deposited data

Results flagged for a closer look

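In 18 of 336 groups of 4 valve arrays looked at (5.36%), 1 array stood apart from the other 3 by Dixon's test, where chance gives about 1 in 20. No explanation was tested. Eln+/- replicate 3 stood apart for Acta2, at -3.20 with the next array at -1.17, and for the cartilage collagens Col2a1 (0.055, next 3.29) and Col11a1 (0.81, next 2.49). The same array stood apart in the list means of proteoglycans (-0.11, next 0.24), the TGF-beta pathway (-0.58, next -0.049), lymphocyte markers (0.043, next -0.10) and inflammatory cytokines (0.35, next -0.044). Eln+/- replicate 4 stood apart for Nppa, at 0.86 with the next at 3.53, and for Esrrb (0.18, next 1.28). Eln+/- replicate 2, which had the least heart muscle RNA of its group, stood apart for Myh6 (0.94, next 1.52), Hadha (0.089, next 0.59) and Prrx1 (-0.17, next -0.80).

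Among Eln+/+ arrays, replicate 4, which had the most heart muscle RNA of its group, stood apart for Cox6a2 (1.24, next 0.25), Jag1 (-0.091, next 0.12) and Postn (-0.51, next 0.0066). Replicate 1 stood apart for Gpr22 (0.68, next 0.12). Replicate 2, the array whose sex-linked genes matched those of the Eln+/- arrays, stood apart for Wnt5a (1.80, next 0.21) and for the mean of macrophage markers (-0.098, next 0.38).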

How the results depend on the processing

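The count of probe sets past the adjusted threshold, 0 in limma, became 1 with array weights and 1 with probe sets of median below 1 left out, in both cases Perm1 (limma adjusted p = 0.0430 and 0.0492). Leaving out 1 array gave 0 to 11, the 11 without Eln+/- replicate 4 (8 higher and 3 lower, among them Perm1, Plpp7, Esrrb, Ifit1bl1, Peli2 and Cybrd1), with 1 without Eln+/+ replicate 2. At equal index the count of 0 ranged from 0 to 14 with 1 array left out, the 14 without Eln+/+ replicate 2 and including Xist and Eif2s3y. Before the index was used, the limma adjusted p of Perm1 was 0.223 in the fit of the 8 valve arrays. Another probe set had the lowest limma adjusted p there, 0.132. For Perm1 it was 0.124 after quantile normalization, 0.367 with the sex-linked covariate and 0.229 with the mean of its probe sets. Eln, at -1.27, kept its direction and stayed short of the threshold under every alternative run, between -1.57 and -0.97 with 1 array left out. Its value at equal index, 0.016, turned to -1.24 with the slope over all 16 arrays, -0.042 after centring each array, -0.70 after quantile normalization and -0.12 with atrial and ventricular means as covariates, an alternative chosen after seeing the data. It ranged from -0.30 to 0.59 with 1 array left out. Of named genes, Fbln5 (-0.49 to 0.021), Acan (-0.60 to 0.23) and Ryr3 (-0.65 to 0.087) changed sign with 1 array left out. Of 43 list medians, 1 changed sign after quantile normalization and 5 with the sex-linked covariate before the index was used; this covariate also lowered Hadha from 0.45 to 0.0049. At equal index 22 changed with the slope over all 16 arrays, 13 after quantile normalization, 16 with the sex-linked covariate and 1 to 13 with 1 array left out; the cause was not tested. The replicate block gave 0 calls in limma in both fits (lowest adjusted p 0.401 and 0.889) with 1.16 for Eln at equal index. Deviations of same-numbered arrays from their group means correlated at -0.115 to 0.0711. Whether such arrays share a litter or day is not given in the labels, and these correlations cannot tell. Medians below 1 in 1984 of the probe sets shown per gene may mark signals near a floor.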

Other observations

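Clock genes were looked at after Per3 appeared among the genes at equal index, so the list was chosen after values were seen. The mammalian clock is a loop in which Arntl, with Clock or Npas2, drives the Per, Cry and Nr1d genes and the output factors Dbp, Tef and Hlf, and the products of the first 3 families hold Arntl and its partners back. Of 15 clock genes measured in valve, 3 were higher and 12 lower in Eln+/-. Arntl stood at -0.28, 0.60, 1.02 and 0.26 in Eln+/- and at 0.016, -1.60, -0.016 and -1.80 in Eln+/+. It was high in 3 Eln+/- arrays and low in Eln+/+ replicates 2 and 4, with a difference of 1.25 ± 0.47 (SE). Dbp stood the other way, at 0.38, -2.12, -0.33 and -0.54 against 0.62, 0.96, 1.05 and 1.67. All Eln+/- arrays were below all Eln+/+ arrays, with a difference of -1.73 ± 0.71 (SE). Nr1d2, a repressor of Arntl, gave 0.11, -1.54, -0.71 and -0.069 against 0.30, 0.63, 0.60 and 0.56, also separate, with a difference of -1.07 ± 0.40 (SE). Per2 differed by -1.002 ± 0.37 (SE) and Tef by -0.97 ± 0.44 (SE). With the sex-linked pattern as a covariate the differences of Dbp (-0.44), Nr1d2 (-0.51), Per2 (-0.46) and Per3 (-0.68) were smaller. Those of Arntl (1.44) and Tef (-1.475) were larger. Eln+/- replicate 2 was the lowest array for Dbp, Nr1d2 and Per3. None passed in limma (Arntl adjusted p = 0.467, Dbp 0.514, Nr1d2 0.462), and the time of day at which tissues were taken is not given in the labels.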
